A study of Mus musculus with 12 samples.

Results

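The nuclear genes of oxidative phosphorylation were described in haematopoietic stem cells (HSCs), the self-renewing cells of the bone marrow from which all blood lineages derive. They were chosen by gene name, from the symbol families of the 4 respiratory complexes, cytochrome c and ATP synthase, and the rule used no measured value. Of 14143 genes in the table, 56 matched, 22 of complex I, 4 of complex II, 6 of complex III, cytochrome c itself, 7 of complex IV and 16 of complex V, and all 56 passed the filter on low values (an FPKM of 1 in at least 3 libraries). In GENCODE M21, 86 gene names match the rule, and the others, among them Cox6a1, Cox6b1, Cox7a2 and Cox8a, were not analysed here, nor was any of the mitochondrially encoded subunits. RNA-seq was made from old My-HSCs, young My-HSCs, old Ly-HSCs and young Ly-HSCs of female C57BL/6J mice, with no treatment named. Each of these 4 groups had 3 libraries, each from an independent group of mice per the labels. Cells of all 4 groups were sorted as lineage-negative, Sca-1+, c-kit+, CD48- and CD135-, and CD150 then separated the high fraction, the myeloid-biased My-HSCs, from the low fraction, the lymphoid-biased Ly-HSCs. Old mice were 18 months of age. Young mice were 8 to 10 weeks of age in the sample labels, while the protocol gives 8 to 12 weeks. Old and young mice came from different colonies, so age and colony cannot be told apart.

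Complexes I and II pass electrons from NADH and succinate to ubiquinone. Complex III hands them to the mobile carrier cytochrome c, and complex IV passes them to oxygen. Complexes I, III and IV pump protons, and complex V, the ATP synthase, uses the returning protons to make ATP. All of these except complex II also hold subunits encoded in the mitochondrial genome, so their nuclear genes are only one of the sources of each complex. Quiescent HSCs are known for relying on glycolysis, and differentiation is accompanied by a rise of mitochondrial respiration.

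Values are deposited FPKM, a count of fragments divided by transcript length and by the library's mapped fragments, and a level is compared between genes only on this scale, which is per length. Log2 fold changes are differences of log2(FPKM + 1), each with its standard error from limma fitted over all 12 libraries and 10900 genes, and a gene was called at a Benjamini-Hochberg adjusted p under 0.05 over all genes of a contrast. Read totals are unknown from these values. Of the tested genes, 2.13, 0.321 and 0.303% were listed at 0 in old My-HSC libraries 1, 2 and 3, and 7.31, 2.72 and 2.22% in the young My-HSC libraries. These shares were 4.91, 0.440 and 0.899% in the old Ly-HSC libraries and 15.7, 6.18 and 9.29% in the young Ly-HSC libraries, so the share at 0 moved with age. Slamf1, which encodes the sort antigen CD150, stood at 26.4, 35.3 and 31.0 FPKM in old My-HSCs, 34.0, 20.9 and 15.0 in young My-HSCs, 1.78, 8.33 and 6.47 in old Ly-HSCs and 4.87, 1.39 and 1.70 in young Ly-HSCs. Every My-HSC library thus exceeded every Ly-HSC library in the antigen that separated the subsets. Flt3, which encodes CD135, stood at 3.22, 1.22 and 1.02 FPKM in old My-HSCs and 0.571, 0.792 and 4.01 in young My-HSCs. In old Ly-HSCs it stood at 15.1, 8.69 and 9.74 FPKM, and in young Ly-HSCs at 2.58, 22.0 and 21.9. Cd48 was highest in library 2 of the old and young Ly-HSCs (10.9 and 4.73 FPKM). Transcripts of antigens sorted as negative were thus present, mostly in Ly-HSCs. Sums of granulocyte and erythroid markers stood highest in both old libraries numbered 1, though not every marker did. Prtn3 stood at 69.7 FPKM in old Ly-HSC library 1, below old My-HSC libraries 2 and 3 (79.7 and 88.6 FPKM). Epor was highest in young My-HSC library 3 (12.3 FPKM). The 3 granulocyte markers in the table summed to 300.1, 108 and 110.1 FPKM in old My-HSCs and 297, 77.8 and 82.9 FPKM in old Ly-HSCs, against 29.5, 14.2 and 42.4 FPKM in young My-HSCs and 1.79, 49.7 and 56.9 FPKM in young Ly-HSCs. The 9 erythroid markers summed to 105, 14.7 and 21.9 FPKM in old My-HSCs and 143, 31.4 and 23.1 FPKM in old Ly-HSCs, against 9.51, 26.8 and 33.7 FPKM in young My-HSCs and 13.2, 23.3 and 14.4 FPKM in young Ly-HSCs. The 3 mast cell and basophil markers also stood highest in these libraries, at 18.3 FPKM in the old My-HSC and 16.0 FPKM in the old Ly-HSC one, against 0 to 11.9 FPKM in the other 10. The 7 monocyte and macrophage markers summed to 41.4, 26.2 and 11.1 FPKM in old My-HSCs and 48.8, 18.0 and 13.5 FPKM in old Ly-HSCs, against 18.1, 46.2 and 27.7 FPKM in young My-HSCs and 0.0473, 19.7 and 0.846 FPKM in young Ly-HSCs. The part of these cells in the results below was not tested, and the counts over all 56 genes and over each complex are also given without both libraries.

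Promoters are shown for the genes Atp5g1, Atp5g2 and Atp5g3, which all encode the same c subunit of the ATP synthase ring. Among these, old and young libraries stood apart below for Atp5g3 alone. The promoter of Ndufb8 is shown as that of the complex I gene with the smallest p between old and young cells in Ly-HSCs and in the mean of subsets. Each promoter runs from 250 bases before to 50 bases after the annotated start, 5′ to 3′ on the minus strand of RefSeq's GRCm38.p6, and capitals mark matches on either strand to the motifs named after them.
Atp5g1, chr11:96075582-96075881: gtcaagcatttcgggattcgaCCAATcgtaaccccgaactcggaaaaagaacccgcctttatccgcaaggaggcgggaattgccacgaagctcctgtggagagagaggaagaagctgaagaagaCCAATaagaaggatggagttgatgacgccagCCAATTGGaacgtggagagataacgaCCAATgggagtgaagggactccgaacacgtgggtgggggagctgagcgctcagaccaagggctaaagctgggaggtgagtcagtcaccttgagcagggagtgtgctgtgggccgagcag
Atp5g2, chr15:102670998-102671297: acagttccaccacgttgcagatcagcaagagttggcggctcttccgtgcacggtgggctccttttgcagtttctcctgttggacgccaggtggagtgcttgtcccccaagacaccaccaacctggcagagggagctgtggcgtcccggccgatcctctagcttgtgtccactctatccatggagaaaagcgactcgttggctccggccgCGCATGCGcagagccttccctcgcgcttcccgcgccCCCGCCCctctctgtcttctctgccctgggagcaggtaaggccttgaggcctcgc
Atp5g3, chr2:73911277-73911576: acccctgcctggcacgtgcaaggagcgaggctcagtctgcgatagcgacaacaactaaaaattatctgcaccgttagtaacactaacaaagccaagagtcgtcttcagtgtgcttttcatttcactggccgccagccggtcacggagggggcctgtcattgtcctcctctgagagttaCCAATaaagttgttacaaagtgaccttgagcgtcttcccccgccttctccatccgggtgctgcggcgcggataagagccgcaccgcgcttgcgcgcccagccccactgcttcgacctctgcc
Ndufb8, chr19:44555393-44555692: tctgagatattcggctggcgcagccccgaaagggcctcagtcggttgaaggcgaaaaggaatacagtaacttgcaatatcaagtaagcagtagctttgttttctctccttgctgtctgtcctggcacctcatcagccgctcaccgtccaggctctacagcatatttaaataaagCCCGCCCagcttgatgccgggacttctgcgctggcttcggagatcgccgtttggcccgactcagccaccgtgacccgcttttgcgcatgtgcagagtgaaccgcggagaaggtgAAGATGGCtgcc
The motifs were the palindromic core of the nuclear respiratory factor NRF1 (CGCATGCG), the ETS site bound by GABP, also called NRF-2 (CCGGAAG), the YY1 site (AAGATGGC), the GC box (GGGCGGG) and the CCAAT box (CCAAT). The Atp5g2 promoter held the NRF1 core 41 bases before the start and a GC box. The Atp5g1 promoter held 5 matches to the CCAAT box, of which the pair on opposite strands at 95 and 92 bases before the start overlap. The Atp5g3 promoter held 1 CCAAT box, 72 bases before the start, and none of the other letters. The Ndufb8 promoter held the YY1 letters 38 bases after the start and a GC box.

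RefSeq's table gave a promoter for 44 of the 56 genes. Those without an entry include Ndufs1, Sdhc, Uqcrc2, Uqcrq, Cyc1, Cox4i1, Cox6c, Atp5a1, Atp5f1, Atp5s and Atp5sl. The NRF1 core stood in 5 of the 44 promoters (11.4%), those of Uqcrc1, Cycs, Ndufa11, Atp5g2 and Atp5l, against 1.91% of 27025 mouse promoters of the same length. The YY1 letters stood in 7 (15.9%, against 2.88%), and 6 of these 7 belong to complex I. The ETS letters stood in 8 (18.2%, against 9.12%), among them Sdhb, Sdhd and Atp5e. An NRF1 core or an ETS site was present in 12 of 44 promoters (27.3%), against 10.7% of all. The GC box (14 of 44, 31.8%, against 25.8%) and the CCAAT box (16 of 44, 36.4%, against 37.9%) were about as frequent as elsewhere. These are matches of letters, given as a description without a test.

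The genes were expressed well above the typical gene. The median gene among them stood at 22.8 FPKM, against 10.9 FPKM for the median of all tested genes, each gene taken at its mean log2 level. Of the 56 genes, 44 lay above the median level of all tested genes, 13 in the top 10% and 0 in the lowest 10%. Together they made up 0.794, 0.891 and 0.911% of the summed FPKM in old My-HSCs, 0.721, 0.801 and 0.742% in young My-HSCs, 0.992, 0.845 and 0.865% in old Ly-HSCs and 0.826, 0.747 and 0.795% in young Ly-HSCs. Levels differed widely between subunits of the same complex. The highest gene was Atp5a1, the alpha subunit of the synthase (ENSMUSG00000025428.15, chromosome 18 from 77773729 to 77782869 on the plus strand), at 108, 148 and 144 FPKM in old My-HSCs, 85.1, 113 and 109 in young My-HSCs, 111, 144 and 122 in old Ly-HSCs and 73.7, 116 and 109.8 in young Ly-HSCs. The lowest was Ndufb2, a small accessory subunit of the membrane arm of complex I, at 3.54, 1.91 and 3.51 FPKM in old My-HSCs, 0.568, 4.58 and 4.58 in young My-HSCs, 0.569, 2.10 and 2.36 in old Ly-HSCs and 0, 3.80 and 0.135 in young Ly-HSCs. The libraries of the groups overlapped for both genes.

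**Figure D1:**
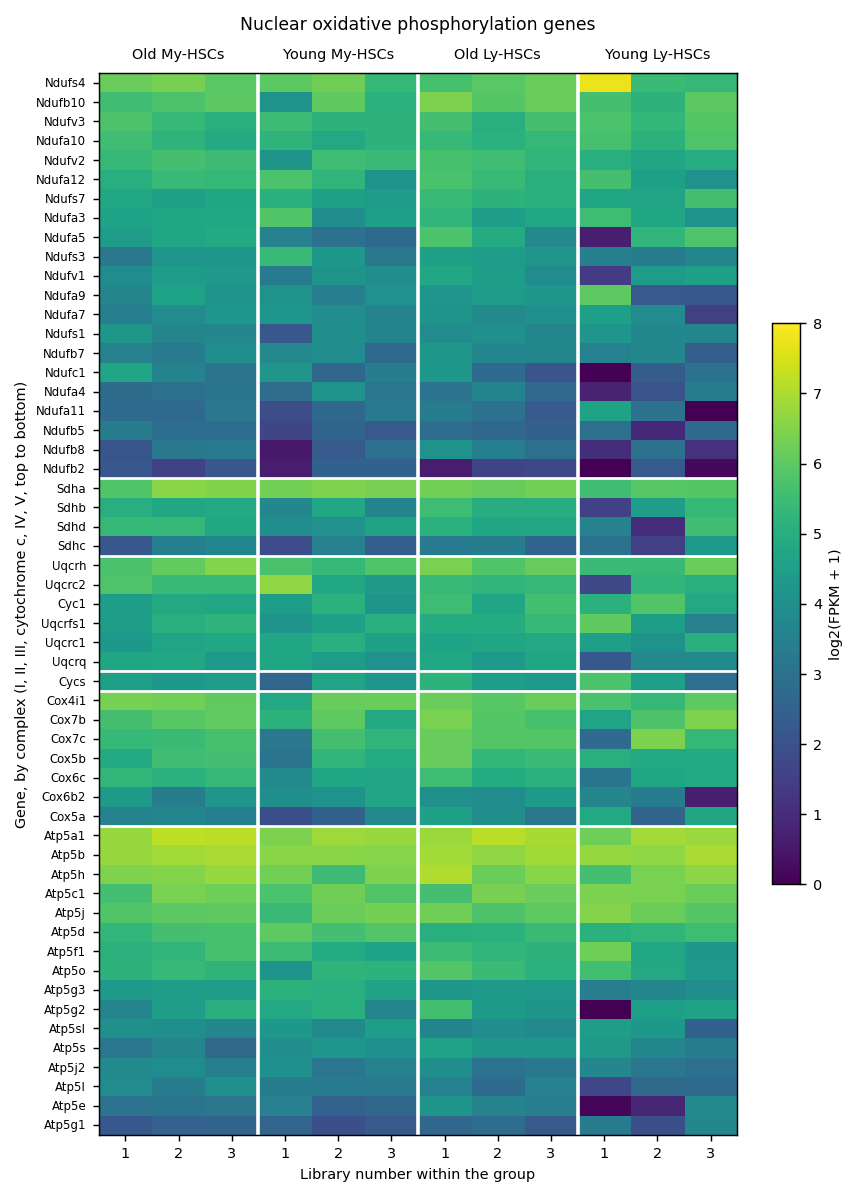
Level of 55 of the 56 genes (rows, by complex and falling mean level) in each of the 12 libraries (columns), as log2(FPKM + 1) on a colour scale. The young Ly-HSC columns are the most uneven, with Ndufc1, Ndufb2 and Atp5g2 listed at 0 in library 1 and Ndufa11 listed at 0 in library 3.

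Among the 56 genes, values of 0 were listed in young Ly-HSCs alone. Ndufc1 and Ndufb2, accessory subunits of complex I, and Atp5g2 were listed at 0 in young Ly-HSC library 1, and Ndufa11, another accessory subunit of complex I, in young Ly-HSC library 3. Ndufc1 stood at 18.2, 5.98 and 3.34 FPKM in old Ly-HSCs, against 4.08 and 7.17 FPKM in the other young Ly-HSC libraries. Atp5g2 stood at 46.9, 19.4 and 16.7 FPKM in old Ly-HSCs, against 21.8 and 23.9 FPKM in the other young ones. Ndufa11 stood at 9.30, 6.98 and 3.95 FPKM in old Ly-HSCs, against 23.2 and 6.90 FPKM in the other young ones. Every cell uses these subunits, so a 0 is reported as listed and no fold change is printed for these genes. The listed values of 0 did enter the fit, the medians and the counts below. There all of these genes count as higher in old Ly-HSCs. Over the 52 genes above 0 in all 12 libraries, 42 were higher in old Ly-HSCs (median log2 fold change 0.46) and 39 in old My-HSCs (0.30).

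The comparison of old with young cells asks how expression of the respiratory chain differs with age within each subset. In both subsets most of the 56 genes stood higher in old cells, by small amounts, and no single gene passed the test. In bulk libraries a different mix of cells and a different level per cell cannot be told apart. In Ly-HSCs 46 of 56 were higher in old than in young cells and the median log2 fold change was 0.47, beside 62.4% of all tested genes with a median of 0.18. In My-HSCs 42 of 56 were higher in old cells (median 0.30), beside 55.8% of all genes with a median of 0.066. By limma 0 of 56 genes were called in either subset, against 0.349% of all genes in Ly-HSCs and 0.211% in My-HSCs. At an unadjusted p under 0.05 stood 7 genes in Ly-HSCs, all higher, where 13.3% of all genes did, and 1 gene in My-HSCs, lower, where 7.21% did. In the mean of both subsets 47 of 56 were higher in old cells (median 0.37), beside 62.7% of all genes with a median of 0.13. There 0 were called (0.844% of all genes) and 12, all higher, had an unadjusted p under 0.05 (14.7% of all genes). The shares of genes called or at a low p were therefore no larger than those of all genes in Ly-HSCs and My-HSCs.

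The counts were similar under other choices. Without both old libraries numbered 1, 41 genes were higher in old Ly-HSCs (median 0.43), 42 in old My-HSCs (0.37) and 47 in the mean (0.39). With the share of genes at 0 as a covariate, 40, 40 and 41 were higher, with medians of 0.31, 0.30 and 0.32, where the median of all genes came to -0.0045, -0.0090 and -0.0076. Of the 56 genes, 34 were higher in old cells in both subsets and 2 lower in both, Atp5d and Atp5j. Another 12 were higher in old Ly-HSCs and lower in old My-HSCs, and 8 the reverse.

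**Figure D2:**
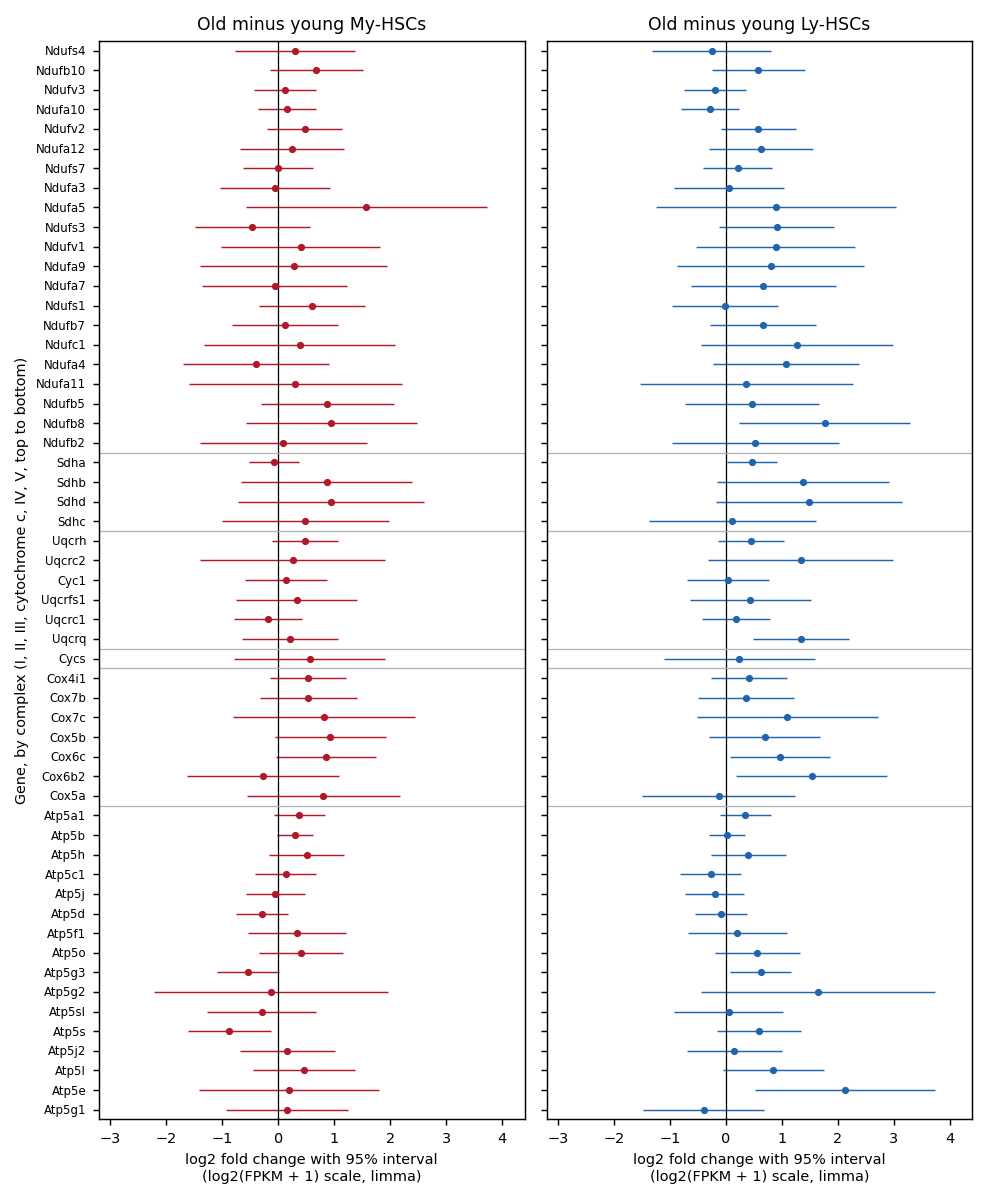
Log2 fold change of 55 of the 56 genes (rows, by complex) between old and young My-HSCs (left) and between old and young Ly-HSCs (right), with 95% intervals from limma. Points lie mostly right of 0, with 42 of 56 higher in old My-HSCs and 46 of 56 in old Ly-HSCs, and most intervals include 0.

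Old and young libraries stood fully apart for few genes. In Ly-HSCs all 3 old libraries exceeded all 3 young ones for 9 genes, Ndufv2, Ndufs3, Sdha, Uqcrc2, Uqcrq, Cox5b, Cox6c, Cox6b2 and Atp5g3, against 11.5% of all genes, and the opposite held for 0 (4.5% of all genes). In My-HSCs this was so for 7 genes, Ndufa5, Ndufb5, Sdhd, Cox6c, Atp5b, Atp5h and Atp5l (11.3% of all genes), and the old libraries all lay below the young for 2, Atp5g3 and Atp5s (7.8% of all genes). Among these only Cox6c stood apart and higher in both subsets.

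**Figure D3:**
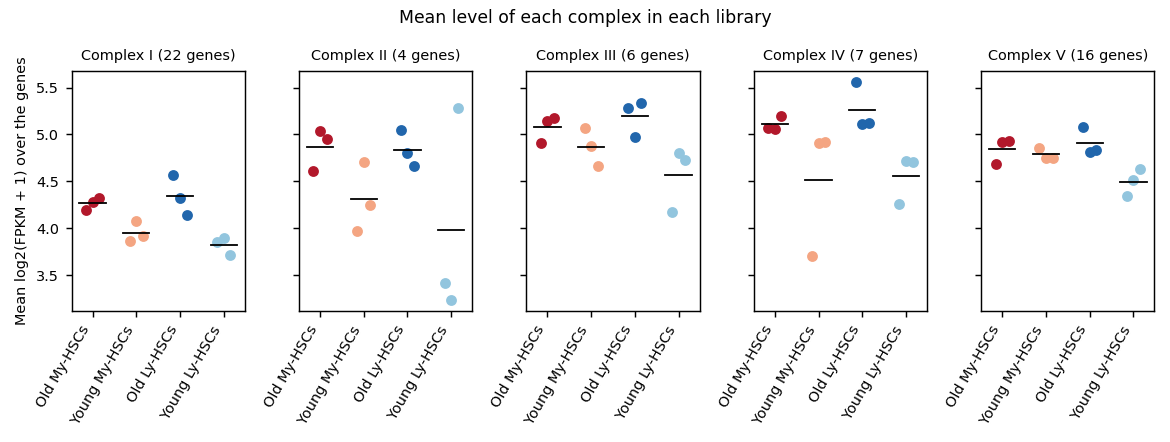
Mean log2(FPKM + 1) over the genes of each complex (panels) in each library (points), with the group mean as a line. In complex IV the 6 old libraries lie between 5.06 and 5.56 and the 6 young ones between 3.70 and 4.92. In complex I, too, every old library lies above every young one of its subset.

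In complex IV all 7 genes were higher in old cells in the mean of both subsets (median 0.63), and all 7 without both old libraries numbered 1 (median 0.55). The mean log2 level over its 7 genes was 5.07, 5.06 and 5.20 in old My-HSCs, against 3.70, 4.91 and 4.92 in young My-HSCs. It was 5.56, 5.11 and 5.12 in old Ly-HSCs, against 4.25, 4.72 and 4.71 in young Ly-HSCs. Every old library thus exceeded every young library of its subset, and library 1 was the lowest in both young groups. Both also held for the mean log2 level over all tested genes. This was 3.59, 3.66 and 3.64 in old My-HSCs, against 3.42, 3.55 and 3.54 in young My-HSCs. In Ly-HSCs it was 3.52, 3.63 and 3.60 in old cells, against 3.12, 3.42 and 3.35 in young cells. In complex I, too, every old library exceeded every young library of its subset. Cox6c, a small nuclear subunit of the oxidase (ENSMUSG00000014313.14, chromosome 15 from 35925886 to 35938246 on the minus strand), stood at 38.3, 33.5 and 39.0 FPKM in old My-HSCs, against 12.8, 25.0 and 24.6 FPKM in young My-HSCs. In Ly-HSCs it stood at 44.3, 30.0 and 33.5 FPKM in old and 7.61, 24.8 and 27.9 FPKM in young cells. All old libraries lay above all young ones, and the mean log2 fold change of 0.91 ± 0.29 (95% interval 0.28 to 1.54) had the smallest p of the 56 genes without passing over all genes (limma, adjusted p = 0.17). Cox5b, a zinc-binding subunit on the matrix side, stood at 28.6, 46.1 and 48.2 FPKM in old My-HSCs, against 7.42, 37.8 and 29.2 FPKM in young My-HSCs. In old Ly-HSCs it stood at 69.4, 38.2 and 43.1 FPKM, against 31.2, 28.6 and 29.0 FPKM in young Ly-HSCs, so the groups were apart in Ly-HSCs and overlapped in My-HSCs. Its mean log2 fold change was 0.81 ± 0.32 (adjusted p = 0.265). The most abundant subunit gene of the complex, Cox4i1, which encodes the ubiquitous isoform of a regulatory subunit, had 0.47 ± 0.22, and the least abundant, Cox5a, 0.34 ± 0.45.

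Cox6b2 is the partner of Cox6b1 that is best known from testis. It was present in these cells, at 19.7, 9.60 and 17.2 FPKM in old My-HSCs, 14.8, 16.2 and 24.8 in young My-HSCs, 15.3, 13.7 and 19.6 in old Ly-HSCs and 11.3, 9.37 and 0.600 in young Ly-HSCs. All young Ly-HSC libraries lay below all old Ly-HSC libraries, the third of them far below, with a log2 fold change of 1.53 ± 0.63 between old and young Ly-HSCs (adjusted p = 0.329), against -0.27 ± 0.63 between old and young My-HSCs. Cox7b and Cox7c, small subunits of the membrane part, had 0.45 ± 0.28 and 0.96 ± 0.53 in the mean of subsets. Cox7c was low in the first library of both young groups, at 7.99 FPKM in young My-HSCs and 5.97 FPKM in young Ly-HSCs, where its other 10 libraries held 37.0 to 84.7 FPKM. The gene Ndufa4 is counted with complex I by its name, although its protein is known as a subunit of complex IV. Its log2 fold change with age was -0.40 ± 0.60 in My-HSCs and 1.07 ± 0.60 in Ly-HSCs.

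Complex II oxidises succinate and is the one complex built wholly from nuclear genes. All 4 genes were higher in old cells in the mean of subsets, with a median log2 fold change of 0.71, and all 4 without both old libraries numbered 1 (0.74). The mean log2 level over the 4 genes was 4.61, 5.04 and 4.95 in old My-HSCs, against 3.97, 4.71 and 4.25 in young My-HSCs. In Ly-HSCs it was 5.05, 4.80 and 4.66 in old cells, against 3.41, 3.24 and 5.28 in young cells. Old and young libraries thus overlapped in both subsets, and young Ly-HSC library 3 lay above every old library. Sdha, the flavoprotein that binds succinate, stood at 55.7, 95.1 and 89.1 FPKM in old My-HSCs, against 79.3, 86.0 and 81.8 FPKM in young My-HSCs, and these libraries overlapped. In Ly-HSCs it stood at 76.9, 69.9 and 79.2 FPKM in old cells, against 46.1, 59.5 and 58.4 FPKM in young cells, where the groups were apart (log2 fold change 0.46 ± 0.21, adjusted p = 0.352). Sdhb, the iron-sulfur subunit, had a difference of 1.12 ± 0.50 in the mean (adjusted p = 0.327), against 0.19 ± 0.15 for Sdha there, and its young Ly-HSC libraries ran from 1.93 to 40.4 FPKM. The membrane anchors Sdhd and Sdhc had 1.22 ± 0.54 and 0.30 ± 0.49. Sdhd was at 10.6, 1.08 and 46.0 FPKM in the young Ly-HSC libraries, a range that holds all 9 other libraries. Without the third of these the mean difference of Sdhd was 1.76 ± 0.37 and passed the test (limma, adjusted p = 0.0469). That fit called 133 of all genes, against 92 with all 12 libraries.

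In complex III all 6 genes were higher in old than in young Ly-HSCs (median 0.44) and 5 of 6 in old than in young My-HSCs (median 0.24). Without both old libraries numbered 1 it was 5 of 6 in each (0.41 in Ly-HSCs and 0.20 in My-HSCs). Uqcrq, a small subunit bound to cytochrome b (ENSMUSG00000044894.14, chromosome 11 from 53427922 to 53430831 on the minus strand), stood at 26.1, 19.3 and 25.4 FPKM in old Ly-HSCs, against 3.65, 12.7 and 13.0 FPKM in young Ly-HSCs. No library overlapped between these groups, and the difference of 1.34 ± 0.40 (95% interval 0.48 to 2.20) had the smallest p of the 56 genes in this contrast (adjusted p = 0.189). In My-HSCs the gene stood at 25.4, 26.3 and 18.7 FPKM in old and 24.9, 20.6 and 15.4 FPKM in young cells, which overlapped (0.21 ± 0.40). Uqcrh, the hinge protein that holds cytochrome c1, was the most abundant gene of the complex, with 0.46 ± 0.19 in the mean of subsets (adjusted p = 0.284). Among the catalytic and core subunits Cyc1, or cytochrome c1, had 0.089 ± 0.24, the Rieske iron-sulfur protein Uqcrfs1 0.38 ± 0.35, and the core proteins Uqcrc1 and Uqcrc2 -0.0016 ± 0.20 and 0.80 ± 0.54. Uqcrc2 ran between libraries from 2.36 FPKM in young Ly-HSC library 1 to 101 FPKM in young My-HSC library 1, while its 6 old libraries held 37.7 to 54.9 FPKM. Cycs, the somatic cytochrome c, stood at 22.7, 18.1 and 19.8 FPKM in old My-HSCs, against 5.23, 24.4 and 17.3 in young My-HSCs. It stood at 34.8, 20.7 and 18.9 in old Ly-HSCs and 52.5, 22.0 and 6.61 in young Ly-HSCs. Its groups overlapped in both subsets, and its mean difference was 0.40 ± 0.44.

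Complex I, the largest of the chain, had 17 of 22 genes higher in old cells in each subset, with medians of 0.58 in Ly-HSCs and 0.29 in My-HSCs, and 20 of 22 in the mean (median 0.34). Without both old libraries numbered 1, 16 were higher in old Ly-HSCs (0.45), 14 in old My-HSCs (0.32) and 19 in the mean (0.36). Ndufb8, an accessory subunit of the membrane arm that is unstable when the complex fails to assemble (ENSMUSG00000025204.10, chromosome 19 from 44548572 to 44555440 on the minus strand), stood at 3.23, 8.12 and 8.99 FPKM in old My-HSCs, against 0.446, 3.83 and 6.65 FPKM in young My-HSCs. In Ly-HSCs it stood at 15.8, 9.86 and 6.61 FPKM in old cells, against 1.08, 6.80 and 1.18 FPKM in young cells. Young libraries were uneven, and the groups overlapped in both subsets (mean log2 fold change 1.36 ± 0.50, adjusted p = 0.23). A predicted gene, Gm20538, overlaps Ndufb8 on the same strand, so its reads may be shared. In the catalytic core Ndufv1, which binds NADH and FMN, had 0.65 ± 0.46 in the mean of subsets, and the iron-sulfur subunit Ndufs1 0.30 ± 0.31. Ndufv2 and Ndufs3, further core subunits, were apart between old and young Ly-HSCs. Ndufv2 stood at 49.6, 45.5 and 37.2 FPKM in old Ly-HSCs, against 31.3, 25.6 and 30.4 FPKM in young Ly-HSCs (0.58 ± 0.31). Ndufs3 stood at 22.8, 20.1 and 17.2 FPKM in old Ly-HSCs, against 9.91, 9.27 and 11.4 FPKM in young Ly-HSCs (0.91 ± 0.48), and had the opposite sign in My-HSCs (-0.46 ± 0.48).

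The most abundant gene of complex I, Ndufs4, an accessory subunit needed for a stable complex, had 1 library far from the rest. It stood at 215, 43.1 and 39.4 FPKM in young Ly-HSCs, the first of them far above the other 11 libraries, which held 39.2 to 80.5 FPKM, and its difference with age was -0.26 ± 0.49 in Ly-HSCs and 0.30 ± 0.49 in My-HSCs. Ndufa9, an accessory subunit at the ubiquinone end, stood at 16.9, 20.3 and 18.1 FPKM in old Ly-HSCs, against 63.9, 3.68 and 3.56 FPKM in young Ly-HSCs, a difference of 0.80 ± 0.77 (adjusted p = 0.686). Without young Ly-HSC library 1, which stood far above the other libraries, the difference between old and young Ly-HSCs was 2.07 ± 0.36 and passed the test (limma, adjusted p = 0.0278). That fit called 59 of all genes, against 38 with all 12 libraries. Ndufa5, an accessory subunit of the peripheral arm, stood at 20.3, 25.3 and 28.9 FPKM in old and 10.8, 7.09 and 5.61 FPKM in young My-HSCs, which were apart. In Ly-HSCs it ran from 0.598 to 54.8 FPKM among young libraries alone, and its difference in My-HSCs, 1.58 ± 0.99, kept a wide 95% interval of -0.57 to 3.72. Between young My-HSCs and young Ly-HSCs it differed by -0.81 ± 0.99, and by -2.43 ± 0.47 (limma, adjusted p = 0.0472) without young Ly-HSC library 1. The latter fit called 55 of all genes, against 13 with all 12 libraries.

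In complex V 12 of 16 genes were higher in old Ly-HSCs (median 0.28) and 10 of 16 in old My-HSCs (median 0.16). Leaving out both old libraries numbered 1 gave 10 of 16 (0.16) in Ly-HSCs and 12 of 16 (0.26) in My-HSCs. Its most abundant genes encode the alpha and beta subunits of the F1 head. Atp5b, the beta subunit, stood at 107, 118 and 125 FPKM in old My-HSCs, against 94.5, 94.6 and 92.9 FPKM in young My-HSCs, without overlap (0.31 ± 0.15, adjusted p = 0.725). In Ly-HSCs its difference was 0.019 ± 0.15, with a 95% interval of -0.31 to 0.34. Atp5a1 had 0.36 ± 0.15 in the mean of subsets (adjusted p = 0.28), and -0.074 with the share of genes at 0 as a covariate. Atp5e, the small epsilon subunit of the central stalk, stood at 16.7, 10.9 and 9.83 FPKM in old Ly-HSCs, against 0.0821, 0.829 and 12.8 FPKM in young Ly-HSCs. The third young library lay within the old range and the other two far under it (2.13 ± 0.75, adjusted p = 0.247). Without that library the difference was 3.23 ± 0.48 and passed the test (limma, adjusted p = 0.0127). That fit called 110 of all genes, against 38 with all 12 libraries. In My-HSCs Atp5e stood at 7.23, 7.38 and 8.02 FPKM in old cells, against 10.1, 4.69 and 5.50 FPKM in young cells (0.20 ± 0.75). Atp5h and Atp5l, subunits d and g of the peripheral stalk and membrane part, were apart and higher in old My-HSCs, with 0.51 ± 0.31 and 0.46 ± 0.42. Atp5d, the delta subunit, and Atp5j, coupling factor 6, were the pair lower in old cells in both subsets, with -0.19 ± 0.15 and -0.13 ± 0.17 in the mean. Atp5j overlaps Gabpa on the opposite strand, and the use of strand in counting was not stated in the sources used.

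The genes of the c subunit did not all go the same way by group mean, and a difference between them was not tested. Atp5g3 (ENSMUSG00000018770.9, chromosome 2 from 73908447 to 73911326 on the minus strand) stood at 19.1, 21.1 and 20.0 FPKM in old My-HSCs, against 34.5, 32.4 and 23.3 FPKM in young My-HSCs. It stood at 18.0, 18.9 and 19.1 FPKM in old Ly-HSCs, against 9.68, 11.9 and 14.1 FPKM in young Ly-HSCs. The groups were apart in both subsets and in opposite directions, with -0.54 ± 0.25 in My-HSCs (adjusted p = 0.705) and 0.62 ± 0.25 in Ly-HSCs (adjusted p = 0.326). Its old libraries of both subsets met within 18.0 and 21.1 FPKM. Atp5g2 stood at 11.4, 21.3 and 31.8 FPKM in old My-HSCs, 27.6, 32.4 and 11.4 in young My-HSCs, 46.9, 19.4 and 16.7 in old Ly-HSCs and 0, 21.8 and 23.9 in young Ly-HSCs, with overlap between all groups. Atp5g1, the least abundant gene of complex V, stood at 3.60, 4.70 and 4.88 FPKM in old My-HSCs, 5.08, 2.90 and 3.70 in young My-HSCs, 5.26, 6.26 and 3.81 in old Ly-HSCs and 8.93, 2.88 and 12.0 in young Ly-HSCs, also with overlap. The mean log2 level of Atp5g2 was 4.38 in old and 4.51 in young My-HSCs. In Ly-HSCs it was 4.69 in old and, with the listed 0, 3.05 in young cells. These are the directions of Atp5g3. Atp5g1 had the opposite ones, with 2.42 in old and 2.27 in young My-HSCs, and 2.59 in old and 2.99 in young Ly-HSCs. Of the summed FPKM of these genes, Atp5g3 made up 56.0, 44.8 and 35.3% in old My-HSCs, 51.4, 47.8 and 60.7% in young My-HSCs, 25.6, 42.5 and 48.2% in old Ly-HSCs and 52.0, 32.6 and 28.2% in young Ly-HSCs, so the shares overlapped between groups. The mature proteins are the same and differ only in their import presequences, and the splitting of reads shared with copies elsewhere in the genome was not stated by the sources used.

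**Figure D4:**
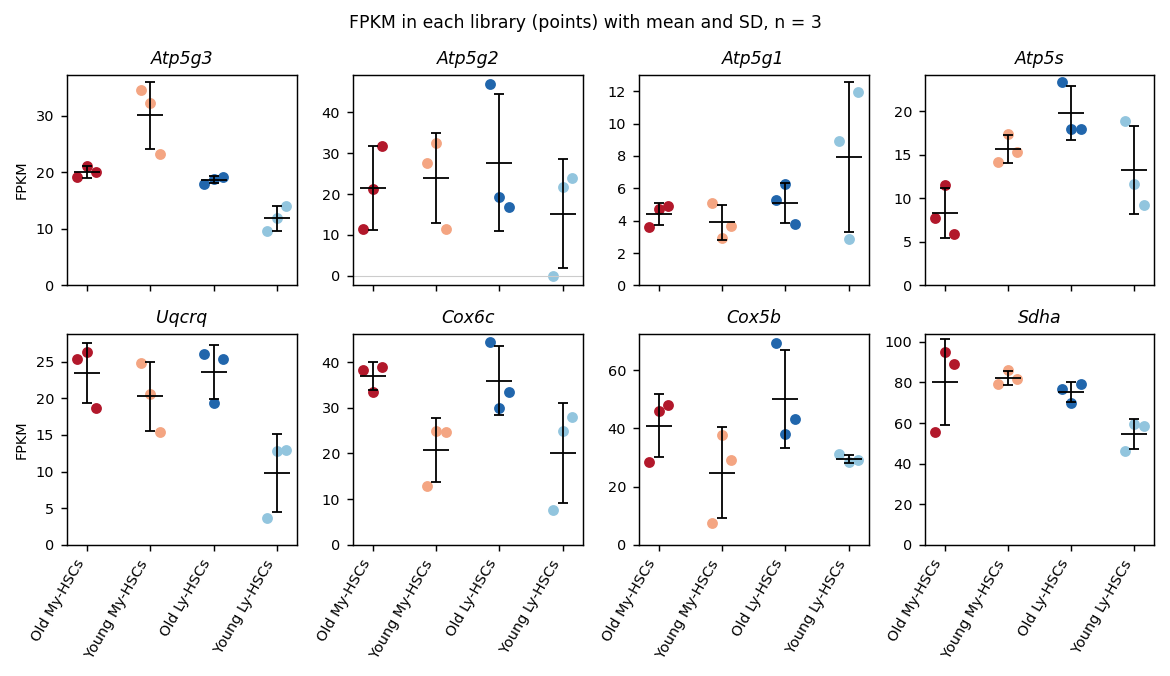
FPKM of 8 of the genes in each library (points), with the mean and SD over 3 libraries (n = 3 per group), from old My-HSCs on the left to young Ly-HSCs on the right. Atp5g3 is highest in young My-HSCs and lowest in young Ly-HSCs, while Cox6c is higher in all old libraries than in the young ones of the same subset.

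Atp5s and Atp5sl carry ATP synthase names but are not core subunits of the enzyme. Atp5s, first described as a coupling factor (ENSMUSG00000054894.5, chromosome 12 from 69724950 to 69744660 on the plus strand), stood at 7.72, 11.5 and 5.85 FPKM in old My-HSCs, against 14.2, 17.4 and 15.3 FPKM in young My-HSCs. All old libraries lay below all young ones, and the difference of -0.87 ± 0.35 had the smallest p of the 56 genes in this contrast (adjusted p = 0.563). In Ly-HSCs it stood at 23.3, 18.0 and 17.9 FPKM in old cells and 18.9, 11.7 and 9.17 FPKM in young cells, which overlapped (0.59 ± 0.35).

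The comparison of My-HSCs with Ly-HSCs at the same age asks whether the subsets differ in the chain. As a group the genes did not lean to one side. In young cells 30 of 56 were higher in My-HSCs, with a median log2 fold change of 0.069, beside 59.2% of all genes with a median of 0.13. In old cells 22 of 56 were higher in My-HSCs, with a median of -0.089, beside 52% of all genes with a median of 0.018. This lean turned without both old libraries numbered 1, where 34 of 56 were higher in old My-HSCs with a median of 0.092, and it turned also without old Ly-HSC library 1 alone (33 of 56, 0.034) or old My-HSC library 1 alone (32 of 56, 0.019). By limma 0 genes were called in young cells (0.119% of all genes), in old cells (0.0275%) and in the mean of ages (0.413%). At an unadjusted p under 0.05 stood 6 genes in young cells, 5 of them higher in My-HSCs, where 13.8% of all genes did. In old cells it was 1 gene, lower in My-HSCs (4.03% of all genes), and in the mean of ages 7 genes, 4 of them higher (11.2% of all genes).

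Atp5g3 was the closest to passing. The difference between young My-HSCs and young Ly-HSCs was 1.26 ± 0.25 on the log2 scale (95% interval 0.71 to 1.81, adjusted p = 0.0608), and all young My-HSC libraries lay above all young Ly-HSC libraries. It came to 1.27 ± 0.28 when library 2 of the young Ly-HSCs was left out (adjusted p = 0.0366), and leaving out library 3 gave 1.38 ± 0.26 (adjusted p = 0.0431), both past the test. The calls over all genes also rose in these fits, to 299 and 75, against 13 with all 12 libraries. Between old My-HSCs and old Ly-HSCs it was 0.10 ± 0.25. In young cells the libraries of the subsets were apart and higher in My-HSCs for 6 genes, Sdha, Uqcrq, Cox6b2, Atp5d, Atp5g3 and Atp5l (8.97% of all genes), and lower for 1, Atp5b (4.41%). Sdha stood at 79.3, 86.0 and 81.8 FPKM in young My-HSCs, against 46.1, 59.5 and 58.4 FPKM in young Ly-HSCs (0.59 ± 0.21, adjusted p = 0.242). Uqcrq and Cox6b2 had 1.12 ± 0.40 and 1.70 ± 0.63, and Atp5d 0.55 ± 0.21.

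In old cells the libraries of the subsets were apart and higher in My-HSCs for 2 genes, Ndufb5 and Atp5g3 (9.19% of all genes), and lower for 4, Ndufs7, Cox7c, Atp5s and Atp5e (7.53%). Atp5s had the smallest p there, with 7.72, 11.5 and 5.85 FPKM in old My-HSCs against 23.3, 18.0 and 17.9 FPKM in old Ly-HSCs, a log2 fold change of -1.18 ± 0.35 (95% interval -1.93 to -0.44, adjusted p = 0.576). Ndufs7, a core subunit that carries the last iron-sulfur cluster before ubiquinone, stood at 26.3, 22.2 and 25.0 FPKM in old My-HSCs, against 42.0, 34.9 and 32.7 FPKM in old Ly-HSCs (-0.55 ± 0.29). Cyc1 had -0.57 ± 0.34, Atp5d 0.34 ± 0.21 and Atp5l 0.48 ± 0.42, and their libraries overlapped. Atp5g3 was apart by a very small margin, its lowest old My-HSC library at 19.12 FPKM and its highest old Ly-HSC library at 19.11 FPKM.

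Whether the age difference itself depended on the subset was tested by the interaction, the difference between the age effects (My-HSCs minus Ly-HSCs). By limma 0 of 56 genes and 0% of all genes were called, and 2 of the genes stood at an unadjusted p under 0.05, where 5.65% of all genes did. These were Atp5g3, at -1.16 ± 0.36 (95% interval -1.94 to -0.39, adjusted p = 0.788), and Atp5s, at -1.46 ± 0.49 (adjusted p = 0.838). Next by p came Ndufs3 (-1.37 ± 0.67), Cox6b2 (-1.80 ± 0.89) and Uqcrq (-1.13 ± 0.57). Over all 56 genes the median of the interaction was -0.11, beside -0.12 for all tested genes, with 24 of 56 above 0. Without both old libraries numbered 1 the sign of the first turned, to 0.047 with 30 of 56 above 0, beside -0.12 for all tested genes.

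The spread between libraries of the same group was wider in young than in old cells for most of the genes. The median SD of a gene over the 3 libraries on the log2 scale was 0.26 in old My-HSCs, 0.48 in young My-HSCs, 0.27 in old Ly-HSCs and 0.85 in young Ly-HSCs. Over all tested genes it was 0.28 in old My-HSCs, 0.43 in young My-HSCs, 0.35 in old Ly-HSCs and 0.68 in young Ly-HSCs. An SD above 1 was reached by 0 genes in old My-HSCs, 7 in young My-HSCs, 1 in old Ly-HSCs and 24 in young Ly-HSCs. In Ly-HSCs 49 of 56 genes (87.5%) varied more among young than among old libraries, beside 75% of all tested genes, and in My-HSCs 41 of 56 (73.2%), beside 68.7%. The pattern of levels across the 56 genes correlated between libraries at 0.893 to 0.964 in old My-HSCs, 0.716 to 0.861 in young My-HSCs, 0.895 to 0.953 in old Ly-HSCs and 0.393 to 0.655 in young Ly-HSCs. These correlations are across genes of pairs of libraries and are given as a description.

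**Figure D5:**
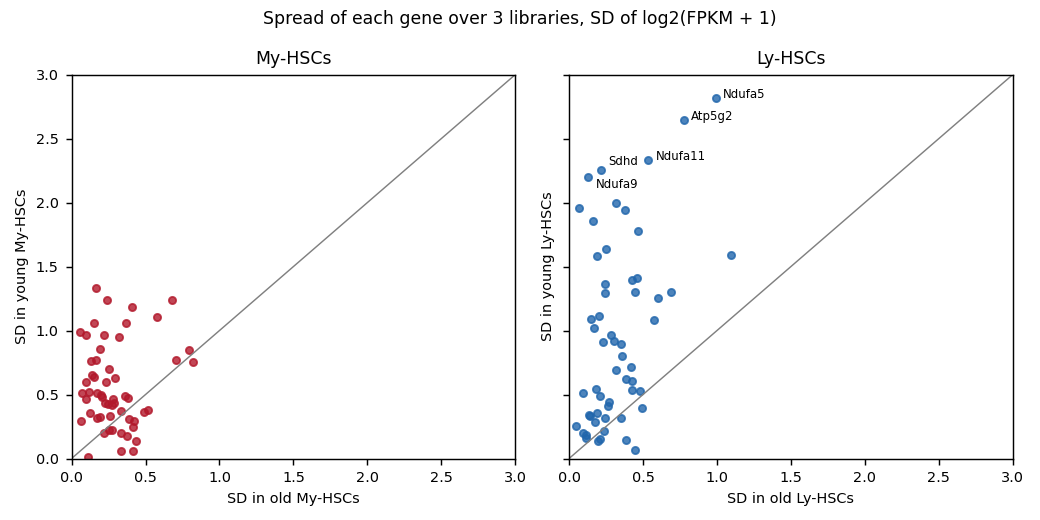
SD of log2(FPKM + 1) of each of the 56 genes over the 3 libraries of a group, old My-HSCs against young My-HSCs on the left and old Ly-HSCs against young Ly-HSCs on the right, with the line of equal spread. In Ly-HSCs 49 of 56 genes lie above the line, led by Ndufa5 and Atp5g2.

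Genes differed widely in how far they varied among young Ly-HSCs. Library 1 held the lowest value of all 12 libraries for 17 of the 56 genes, beside 31.4% of all tested genes, and the highest for 12 of them, beside 18.0%, so these counts were near those of genes at large. The SD was 2.81 for Ndufa5, 2.64 for Atp5g2, 2.33 for Ndufa11, 2.25 for Sdhd and 2.20 for Ndufa9. In the same libraries it was 0.065 for Cox5b, 0.14 for Ndufs3 and 0.15 for Atp5c1, the gamma subunit of the synthase. Among the 28 genes at or under the median level of the 56 the median SD in young Ly-HSCs was 1.30, and among the 28 above it 0.48. In old Ly-HSCs these values were 0.35 and 0.24. Library 1 of the young Ly-HSCs also had the largest share of tested genes at 0, and the part of depth or RNA quality in this spread was not tested.

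Genes around the chain were described from lists. In the mean of subsets 62.7% of all tested genes were higher in old cells (median 0.13). There 0.844% of all genes were called and 14.7% had an unadjusted p under 0.05. These shares stand beside the counts of each list in that mean below. Of 34 assembly factors, which insert cofactors and join subunits, 28 were higher in old cells in the mean of subsets (median 0.28) and 0 were called by limma, with 3 at an unadjusted p under 0.05. Sco1, which delivers copper to complex IV, had 1.25 ± 0.55 and Atpaf1, a chaperone of the F1 head, 1.07 ± 0.43. Of 9 tested carriers and brakes, 7 were higher (median 0.52) and 0 were called, with 3 at an unadjusted p under 0.05. These were Vdac1, the outer membrane pore (0.57 ± 0.21), and the ADP and ATP exchangers Slc25a4 (0.52 ± 0.21) and Slc25a5 (0.61 ± 0.25).

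Regulators of mitochondrial gene expression stood near genes at large. Of 20 tested, 13 (65%, beside 62.7% of all genes) were higher in old cells in the mean of subsets (median 0.071). By limma 0 were called and 2 had an unadjusted p under 0.05 (14.7% of all genes). Nrf1, whose core motif is described above, stood at 9.24, 9.23 and 10.9 FPKM in old My-HSCs, 15.3, 10.5 and 10.5 in young My-HSCs, 8.00, 12.2 and 13.7 in old Ly-HSCs and 1.42, 16.1 and 9.03 in young Ly-HSCs (0.22 ± 0.41). Gabpa, the DNA-binding subunit of GABP, had 0.14 ± 0.17 and Yy1 0.064 ± 0.18. Ppargc1a, the coactivator PGC-1alpha, was low, at 1.03, 3.20 and 3.20 FPKM in old My-HSCs, 4.21, 4.06 and 3.68 in young My-HSCs, 0.209, 1.27 and 1.64 in old Ly-HSCs and 8.38, 4.61 and 0.681 in young Ly-HSCs, with -0.90 ± 0.44 (adjusted p = 0.373). Tfam, which packages mitochondrial DNA, had 1.07 ± 0.47 in Ly-HSCs and -0.11 ± 0.47 in My-HSCs.

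In the citrate cycle, which feeds the chain with NADH and succinate, 11 of 14 genes were higher in old cells in the mean of subsets (median 0.14) and 0 were called, with 0 at an unadjusted p under 0.05. In glycolysis 12 of 19 (63.2%, beside 62.7% of all genes) were higher (median 0.14), and 1 was called (0.844% of all genes). This was Ldha, lactate dehydrogenase A, at 82.4, 93.2 and 92.1 FPKM in old My-HSCs, against 38.2, 61.2 and 46.8 FPKM in young My-HSCs. In Ly-HSCs it stood at 59.5, 65.3 and 64.1 FPKM in old cells, against 40.0, 43.2 and 41.2 FPKM in young cells, and it rose by 0.74 ± 0.13 in the mean (limma, adjusted p = 0.0184). Of 22 cell cycle genes, 21 were higher in old Ly-HSCs with a median of 1.17 (62.4% of all genes). In old My-HSCs 13 were higher with a median of 0.16 (55.8% of all genes). By limma 0 of them were called in either subset. At an unadjusted p under 0.05, 9 stood higher in old Ly-HSCs and 3 lower in old My-HSCs, where 1116 and 235 of all 10900 genes did. The 22 genes summed to 773, 704 and 535 FPKM in old Ly-HSCs, against 324, 428 and 525 FPKM in young Ly-HSCs. Several, among them Ccnb2 and Ube2c, were listed at 0 in young Ly-HSC library 1. Both of these were highest in old Ly-HSC library 1, at 64.8 and 38.8 FPKM. These counts were not made without the libraries numbered 1. The part of the cell cycle genes in the differences of the respiratory genes was not tested.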

How the data were processed

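Poly(A) RNA was sequenced from stranded libraries (KAPA) in paired-end mode on a HiSeq3000, per the labels' protocols. FPKM per gene and library is the unit of the table deposited by the authors. Tools named in the submitters' processing notes are bcl2fastq 2.17, STAR and DESeq2, with the GRCm38 (mm10) build, and the step of each is not stated. Annotation, gene filter, strand use in counting and the handling of multi-mapped reads are likewise not stated there, so genes with copies or overlapping partners are uncertain. FPKM removes read totals, and from 13 to 181 genes shared low values with old My-HSC library 2, too few in some libraries to recover relative depth.

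Values were analysed as log2(FPKM + 1), which understates the differences of low genes, for the 10900 genes at an FPKM of 1 in at least 3 libraries. With limma 3.58.1 (R 4.3.3) a group-means model was fitted to all 12 libraries at once, using limma-trend (8 residual and 5.11 prior degrees of freedom), and the script was tested on simulated data. Of 14143 genes, 14139 matched GENCODE M21, which gave coordinates on GRCm38, and promoter sequences are RefSeq's. The genes, the lists and the promoters' motifs were chosen with earlier results of these data known. Named genes were, by rule, the 5 smallest p of each contrast, the highest and lowest gene of each complex, genes listed at 0, tissue isoforms and the catalytic or core subunits, and genes with a wide spread were added after their values were seen. One gene of complex I is not reported here by name. P-values measure the spread between libraries, each from an independent group of mice per the labels. The main fit takes all 12 libraries as independent and allows for no tie between same-numbered old libraries.

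Deviations of same-numbered old My-HSC and old Ly-HSC libraries correlated at 0.256, 0.233 and 0.21, and those of the other pairs of groups at -0.039 to 0.048. Unlike-numbered libraries were not compared, so whether the numbers pair the old libraries was not tested. Sums of granulocyte and erythroid markers stood highest in both old libraries numbered 1. The part of this in the correlations of the old libraries was not tested.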

Additional observations from a re-analysis of the deposited data

Results flagged for a closer look

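The age difference of Atp5g3 went in opposite directions in the subsets, with all old My-HSC libraries below all young My-HSC libraries (-0.54 ± 0.25 on the log2 scale) and all old Ly-HSC libraries above all young Ly-HSC libraries (0.62 ± 0.25). The difference between these effects (My-HSCs minus Ly-HSCs) was -1.16 (limma, adjusted p = 0.788), so the difference of the effects did not pass the test over all genes.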

How the results depend on the processing

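Between old and young Ly-HSCs 0 genes of the chain were called, and leaving out 1 library in turn gave 0 to 1, which was Ndufa9 without young Ly-HSC library 1 and Atp5e (3.23, adjusted p = 0.0127) without library 3. Between young My-HSCs and young Ly-HSCs it gave 0 to 2, which were Ndufa5 without young Ly-HSC library 1, Atp5g3 without library 2 (adjusted p = 0.0366) or 3 (0.0431), and Atp5e without library 3. In the mean of subsets it gave 0 to 2, Ndufa9 without young Ly-HSC library 1, and Sdhd and Atp5e without library 3. The calls over all genes rose in these fits as well. Between old and young Ly-HSCs they were 59 and 110, against 38 with all 12 libraries. Between the young subsets they were 55, 299 and 75, against 13, and in the mean of subsets 129 and 133, against 92. The number of genes higher in old cells in that mean ran from 42 to 49 and its median from 0.26 to 0.45. The median of the interaction ran from -0.34 without young My-HSC library 1 to -0.034 without old Ly-HSC library 1, and turned to 0.047 without both old libraries numbered 1. With the share of genes at 0 as a covariate the mean age difference of Atp5a1 was -0.074. The replicate block called 0 genes of the chain in every contrast, kept each median (0.47 between old and young Ly-HSCs) and called 15 of all genes there, where 38 were called without it. In the old libraries alone, the fit with a replicate block, chosen after seeing the data, called 0 genes of the chain with a median of -0.089. Counting motifs on the forward strand alone gave 3 promoters with the ETS letters (6.82%, against 4.98% of all promoters). It gave 7 with the GC box (15.9%, against 15.2%) and 10 with the CCAAT box (22.7%, against 21.7%). Other pseudocounts, filters, scalings and TPM changed no call of the chain. For the 35 pairs of gene and contrast with the 5 smallest p of each contrast, 791 of 795 values under the alternatives kept direction and side of the threshold, 3 came to pass it (Atp5e between old and young Ly-HSCs and Atp5g3 between young subsets, as above) and 1 reversed, and the other passes named above lie outside these pairs.

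Without read totals no interval for single values can be given, and young Ly-HSCs, with the widest spread, limit every comparison that uses them.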
